A study of Mus musculus with 2 samples.

Results

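The 34 genes described here are those of glucose uptake, glycolysis, lactate handling and the transcriptional response to low oxygen, chosen by name from 31053 genes. They comprised 4 transporters, 18 glycolytic enzymes, 3 regulators of glycolytic flux, 8 other targets of hypoxia-inducible factor (HIF) and the HIF subunit gene Hif1a. All 34 were counted in 2 droplet single-cell RNA libraries (10x Genomics) of brain tumour in C57BL/6 mice, labelled as mIDH1 (mutant IDH1) tumour cells of animals at the symptomatic stage. The 2 libraries, replicates 1 and 2, form a single group, so the comparisons run between kinds of cell within them. No other allele, agent, sex or age is named for either library, and whether each came from a separate animal is not given in the sources used here, so the p-values measure the spread between these libraries.

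Cells were sorted into 8 classes by marker gates, and a barcode that passed the gates of several classes was set aside. The classes were tumour cells (Nras at 1000 CPM or more), C1qa-positive macrophages or microglia (C1qa at 5 UMIs or more) divided at 2 UMIs of Cx3cr1 into Cx3cr1-high and Cx3cr1-low barcodes, monocytes (Ly6c2 at 1 and Lyz2 at 5 UMIs or more), neutrophils (S100a8 and S100a9 at 10 UMIs or more together), and, at 1 UMI or more, basophils (Mcpt8), dendritic cells (Ccr7) and T cells (Cd3e). A UMI is 1 counted RNA molecule, and CPM is a gene's UMIs scaled to the same fixed total in every cell or summed class. The protocol counts each molecule once, so levels need no division by gene length. The libraries held 63001350 and 58915133 UMIs, and the tumour class held 986 and 830 cells. The immune classes were much smaller, from 15 and 16 neutrophils with 32920 and 37662 UMIs to 178 and 168 Cx3cr1-high cells. The neutrophil values therefore carry the largest counting error. A list of 7 tumour markers summed to 523 and 510 CPM in tumour cells and to 5.04 and 3.02 CPM in Cx3cr1-high cells, but to 194 and 265 CPM in basophils and 126 and 94.1 CPM in dendritic cells. In basophils, 2 and 3 barcodes with at least 3 tumour-marker UMIs held 33.3% and 46.7% of the class's UMIs, and in dendritic cells 16.5% and 19.6%, so values of both are also given without such barcodes. They also held 13.6% of the T cell UMIs in library 1 and 12.02% of the monocyte UMIs in library 2. Each other class except the Cx3cr1-low held its own markers at the highest level of the 8 in both libraries. For monocytes, neutrophils, basophils, dendritic cells and T cells, however, the marker lists include the gate genes. Their high sums there follow in part from the gates. The Cx3cr1-low class stood apart, since 81.1% and 85.7% of its barcodes held no UMI of the nuclear RNA Malat1, against 7.87% and 18.5% in the Cx3cr1-high class. Its macrophage markers summed to 45164 and 43208 CPM, below the 65586 and 72518 CPM of Cx3cr1-high cells.

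Glycolysis splits glucose to pyruvate in the cytosol, and lactate dehydrogenase can then reduce pyruvate to lactate, which leaves the cell through monocarboxylate transporters. When oxygen is short, HIF-1α is no longer hydroxylated and degraded, pairs with ARNT and binds short DNA elements with the core ACGTG or GCGTG near its targets, which include most glycolytic genes and genes of mitophagy, redox folding and pH control. The prolyl hydroxylases that mark HIF-1α are 2-oxoglutarate-dependent, like many dioxygenases, and mutant IDH1 makes the related metabolite 2-hydroxyglutarate.

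Promoters of 6 members on which the later comparisons turn are printed to show the HIF core motif in its setting. They are the transporters Slc2a1 and Slc16a1, the dehydrogenase pair Ldha and Ldhb, and the HIF targets Bnip3 and Ankrd37. Each runs 5′ to 3′ on the gene's strand, upstream of the RefSeq start (GRCm38.p6), and stops where an annotated exon begins. Capitals mark ACGTG or GCGTG on either strand, so CACGT and CACGC are matches on the opposite strand, CACGTG holds 1 match on each, and overlapping matches run together.
Slc2a1: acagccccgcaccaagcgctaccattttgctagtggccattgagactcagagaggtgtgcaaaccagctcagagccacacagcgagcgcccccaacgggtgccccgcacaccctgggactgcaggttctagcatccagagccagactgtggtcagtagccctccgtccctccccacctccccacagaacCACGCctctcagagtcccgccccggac
Slc16a1: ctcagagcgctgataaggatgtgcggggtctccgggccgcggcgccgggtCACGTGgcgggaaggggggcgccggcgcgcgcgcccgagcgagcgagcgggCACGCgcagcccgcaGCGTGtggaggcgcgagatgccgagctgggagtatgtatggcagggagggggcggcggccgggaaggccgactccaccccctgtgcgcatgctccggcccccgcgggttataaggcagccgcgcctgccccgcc
Ldha: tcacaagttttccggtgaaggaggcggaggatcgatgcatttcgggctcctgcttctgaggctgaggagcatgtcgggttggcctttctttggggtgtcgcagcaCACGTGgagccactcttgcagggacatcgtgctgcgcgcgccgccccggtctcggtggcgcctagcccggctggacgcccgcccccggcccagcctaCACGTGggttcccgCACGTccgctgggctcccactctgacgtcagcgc
Ldhb: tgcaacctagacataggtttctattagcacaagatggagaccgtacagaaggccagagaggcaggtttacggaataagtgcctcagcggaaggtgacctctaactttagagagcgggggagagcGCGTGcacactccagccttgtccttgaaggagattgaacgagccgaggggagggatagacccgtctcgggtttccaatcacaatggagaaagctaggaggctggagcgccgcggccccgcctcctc
Bnip3: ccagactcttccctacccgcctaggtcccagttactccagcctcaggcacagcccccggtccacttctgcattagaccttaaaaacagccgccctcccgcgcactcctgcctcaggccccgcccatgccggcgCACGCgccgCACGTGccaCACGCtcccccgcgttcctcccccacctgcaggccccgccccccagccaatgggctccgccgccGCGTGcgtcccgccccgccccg
Ankrd37: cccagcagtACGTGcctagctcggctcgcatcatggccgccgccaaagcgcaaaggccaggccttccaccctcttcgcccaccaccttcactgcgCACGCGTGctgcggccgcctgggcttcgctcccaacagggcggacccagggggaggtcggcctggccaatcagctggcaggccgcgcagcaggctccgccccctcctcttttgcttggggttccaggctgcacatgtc
The Slc2a1 stretch lies at chr4:119108495-119108710 on the plus strand, that of Slc16a1 at chr3:104638414-104638663 on the plus strand, that of Ldha at chr7:46845554-46845803 on the plus strand and inside the annotated Ldha gene, and that of Ldhb at chr6:142507958-142508207 on the minus strand. Bnip3 lies at chr7:138909520-138909756 on the minus strand, and Ankrd37 at chr8:45999868-46000100 on the minus strand, where the annotated genes Ankrd37 and Lrp2bp also run. Ldha and Bnip3 each held 5 matches in the 250 bases before the start, Slc16a1 and Ankrd37 4 each, Slc2a1 2 and Ldhb 1; the printed stretches, cut at exons, hold 1 of those of Slc2a1, 3 of those of Ankrd37 and all of the others'. Over the 31 members found in the promoter table (Slc2a3, Bnip3l and Ndrg1 were not matched), 25 (80.7%) held the motif in the first listed 250-base window, with a median of 2 matches, against 10431 of 27025 genes (38.6%). All 6 matched HIF targets, all 3 flux regulators and all 3 transporters held it, as did 12 of 18 enzymes. Hk1, Gpi1, Aldoa, Tpi1, Eno2 and Pkm did not hold it in that window. In their second listed windows, however, Hk1 held 3 matches and Aldoa and Pkm 1 each, while Gpi1, Tpi1 and Eno2 had no further window. The GC content of the first windows ran from 49.6 to 66.4% in those 6 enzymes and from 36.4 to 80.8% in the 25 members with a match. Its part in the share was not tested. A match is a run of letters and not a measured binding site.

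**Figure D1:**
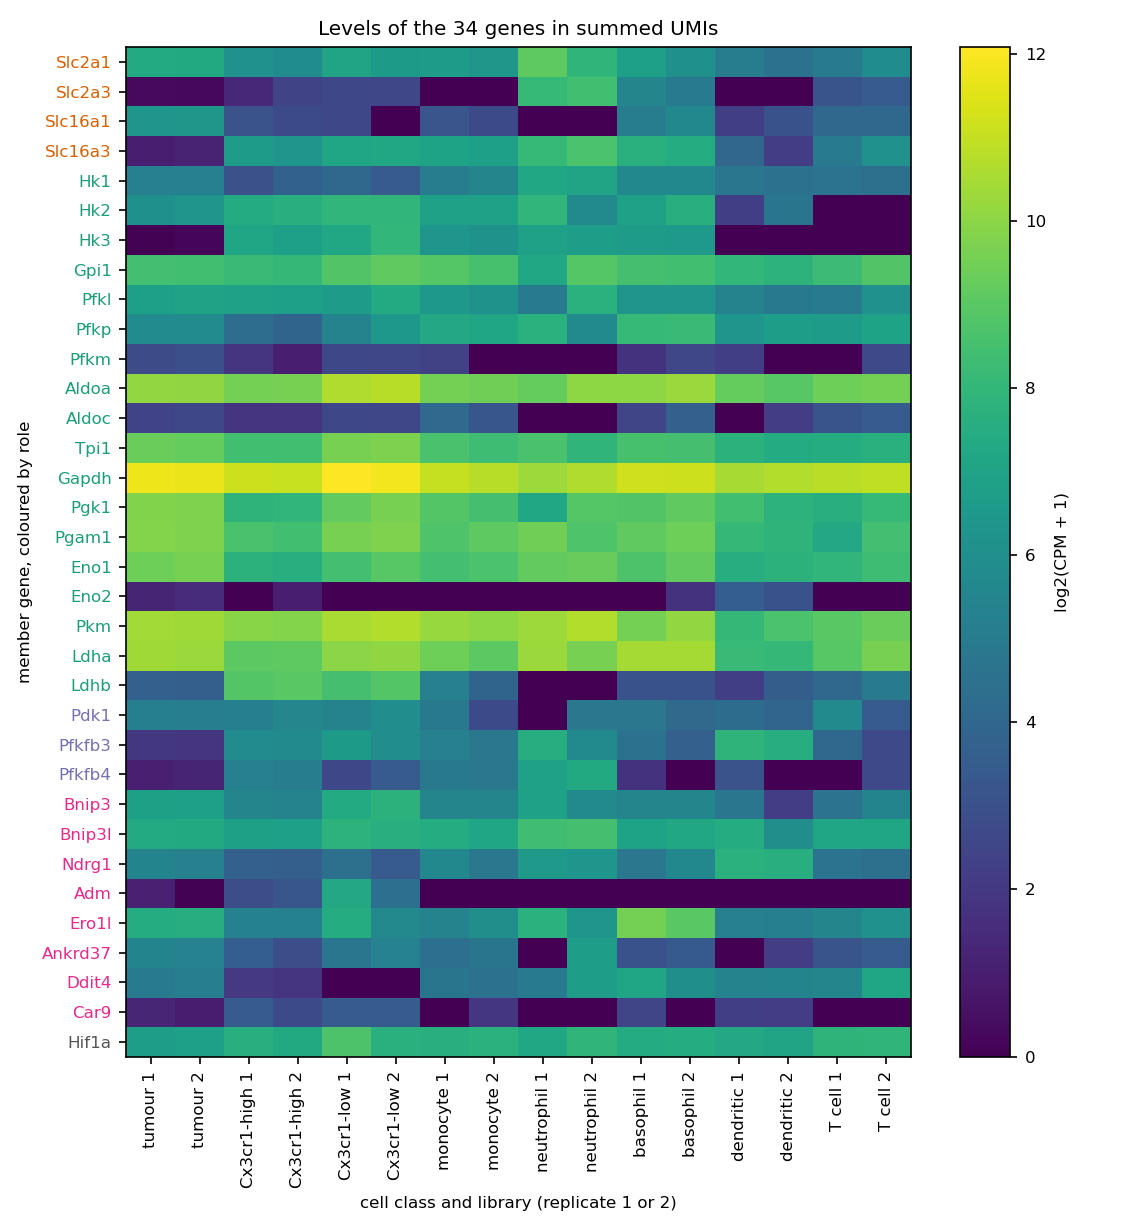
Levels of the 34 genes in the summed UMIs of 8 cell classes, 1 column per class and library, coloured by log2(CPM + 1), with gene names coloured by role (orange, transporters; green, enzymes; violet, flux regulators; pink, other HIF targets; grey, Hif1a). Gapdh is the brightest row in every class but neutrophils, where Pkm is as bright, while Slc2a3, Slc16a1, Slc16a3, Hk3 and Ldhb are dark in some classes and bright in others.

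The transporters divided the classes most clearly. Slc2a1, which encodes the glucose transporter GLUT1, stood at 165 and 161 CPM in tumour cells in libraries 1 and 2 (both values are given in that order throughout). It was at 547 and 239 CPM in neutrophils and at 33.4 and 21.7 CPM in dendritic cells, the class with the lowest mean. Both neutrophil values lay above tumour cells, though far apart from each other, while Cx3cr1-low cells at 131 and 95.7 and basophils at 111 and 65.6 CPM lay below. Slc2a3, encoding the high-affinity transporter GLUT3, was at 273 and 345 CPM in neutrophils and 43.6 and 29.2 CPM in basophils. It was at 0.252 and 0.178 CPM in tumour cells and at 0 UMIs in monocytes and dendritic cells, where a count of 0 allows up to 4.95 and 5.50 CPM over both libraries (counting error only). Among the UMIs of the 2 glucose transporter genes, Slc2a3 took 46.2 ± 18.2% in neutrophils and 29.4 ± 1.87% in basophils (mean ± SD, n = 2, for every such share and level), and 0.132 ± 0.0295% in tumour cells.

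The 2 lactate transporters stood in opposite order in tumour cells and in most immune classes. Slc16a1 encodes MCT1, a carrier of lactate and pyruvate in either direction, and was at 80.3 and 83.0 CPM in tumour cells. Among immune classes its highest values were 33.9 and 48.6 CPM in basophils, and neutrophils had 0 UMIs. Slc16a3 encodes MCT4, which exports lactate from strongly glycolytic cells, and showed the opposite order, with 1.03 and 1.20 CPM in tumour cells, 273 and 398 in neutrophils, 204 and 175 in basophils and 141 and 151 in Cx3cr1-low cells. Dendritic cells held little of either, with 3.71 and 7.24 CPM of Slc16a1 and 14.9 and 3.62 CPM of Slc16a3, and their libraries differed in which was larger. For both genes the tumour values lay outside the range of all 14 immune values. The 0 UMIs of Slc16a1 in neutrophils allow up to 42.5 CPM over both libraries, so tumour cells were at least 1.92-fold higher. In single libraries the same floor of 3 UMIs is 91.1 and 79.7 CPM in neutrophils, near the tumour values. How many of all genes had tumour values outside the immune range, here or for the genes below, was not counted. Slc16a1 made up 98.7 ± 0.116% of the UMIs of the pair in tumour cells and 6.94 ± 0.438% in Cx3cr1-high cells. The basophil share of 18.01 ± 5.27% was a mean of 0.588% without the barcodes that carried tumour markers, and the mean Slc16a1 level of basophils was then 1.82 ± 2.57 CPM in place of 41.3 ± 10.4.

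Hexokinases, which trap glucose as its 6-phosphate, came from different genes in different classes. In tumour cells Hk2, the inducible form, was at 67.0 and 77.0 CPM and Hk1, the widespread form, at 37.6 and 37.5 CPM, while Hk3 was at 0.0420 and 0.111 CPM. Hk3, a form known from myeloid cells, was at 136 and 113 CPM in Cx3cr1-high cells, 151 and 252 in Cx3cr1-low cells, 81.8 and 71.9 in monocytes, 122 and 106 in neutrophils and 99.4 and 89.96 in basophils. Dendritic and T cells had no Hk3 UMI, at least 20.8-fold and 11.7-fold below the pooled other immune classes (floor of 3 counts over the class). T cells also had no Hk2 UMI, so Hk1 made up 100% of their hexokinase UMIs on only 23.2 and 21.2 CPM. Hk3 gave 39.6 ± 5.04% of hexokinase UMIs in Cx3cr1-high cells, 43.1 ± 9.05% in Cx3cr1-low cells, 32.8 ± 3.18% in monocytes, 32.3 ± 6.98% in basophils and 0.0687 ± 0.0404% in tumour cells. Free RNA left little in the tumour sums: 6 macrophage markers that summed to 65586 and 72518 CPM in Cx3cr1-high cells were at 16.4 and 19.3 CPM in tumour cells.

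**Figure D2:**
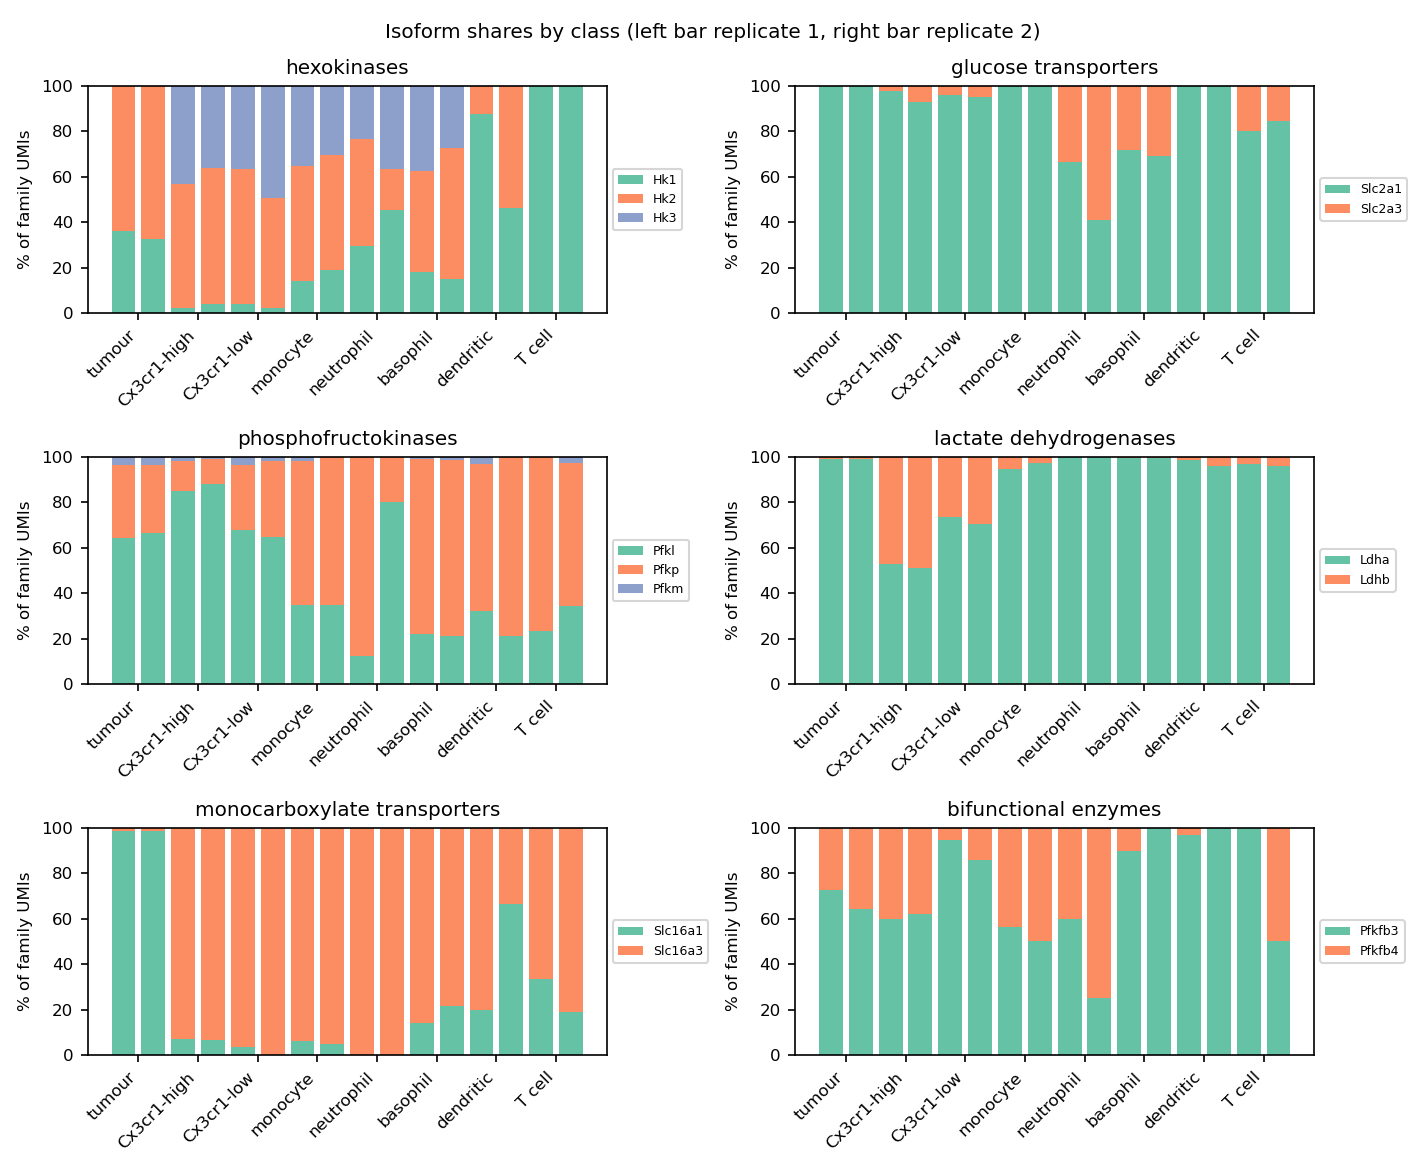
Shares of the UMIs of 6 gene families taken by each member, in percent, with 2 bars per class (left, library 1; right, library 2). Slc16a1 fills the tumour bars and Slc16a3 most immune bars, Ldhb appears mainly in the 2 C1qa classes, and Hk3 is missing from dendritic and T cells and too rare to be seen in tumour cells; bars that disagree between libraries, as for phosphofructokinases in neutrophils, rest on few UMIs.

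Phosphofructokinase commits sugar to glycolysis, and its subunit genes also differed. Pfkl, the liver-type subunit, made up 86.5 ± 2.43% of phosphofructokinase UMIs in Cx3cr1-high cells and 65.6 ± 1.57% in tumour cells. Pfkp, the platelet-type subunit, took 77.5 ± 0.166% in basophils, 71.8 ± 10.1% in dendritic cells, 69.8 ± 9.41% in T cells and 64.3 ± 1.41% in monocytes. Pfkm, the muscle-type subunit, was at 6.02 and 6.78 CPM in tumour cells and at most 5.30 CPM in any immune sum. Neutrophil shares of Pfkl and Pfkp cannot be ordered, since their SD of 47.7 percentage points spans both. In basophils Pfkp was at 274 and 287 CPM, and without the barcodes carrying tumour markers its share was a mean of 88.8%.

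The enzymes of the lower pathway were abundant everywhere. Gapdh, which makes 1,3-bisphosphoglycerate, ranged from 1276 and 1619.7 CPM in neutrophils to 4344 and 3757 in Cx3cr1-low cells, with 3534 and 3365 in tumour cells. Aldoa, the main aldolase, was at 1134 and 1072 CPM in tumour cells and 1577 and 1773 in Cx3cr1-low cells, and Pkm, pyruvate kinase, was at 1347 and 1302 CPM in tumour cells and 1509 and 1672 in Cx3cr1-low cells. Pgk1, which recovers the first ATP of the pathway, was at 881 and 855 CPM in tumour cells against at most 776 in any immune sum. Pgam1, phosphoglycerate mutase, was at 922 and 869.8 CPM against at most 851, and Eno1, the main enolase, at 692 and 780.1 CPM against at most 611. For these 3 enzymes no immune value reached either tumour value. Gpi1, which isomerises glucose 6-phosphate, was at 350.2 and 345 CPM in tumour cells, near the immune median of 351 CPM in a range of 152 to 559 CPM. Tpi1, triosephosphate isomerase, was at 636 and 597 CPM in tumour cells, below only the 783 and 831 CPM of Cx3cr1-low cells. The brain-type forms were nearly silent: Aldoc was at 4.34 and 5.19 CPM and Eno2 at 1.34 and 1.89 CPM in tumour cells. Eno1 values are lower limits, because a nearly identical copy, Eno1b, can take some of its reads.

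Lactate dehydrogenase gave the sharpest split between the C1qa-positive cells and all others. Ldha, whose subunit favours lactate formation, was at 1309.8 and 1224 CPM in tumour cells, 1410.4 and 1386 in basophils and 522 and 539.8 in Cx3cr1-high cells. Ldhb, whose subunit favours lactate use, was at 465 and 515 CPM in Cx3cr1-high cells and 371 and 458 in Cx3cr1-low cells. No other class passed 36.8 CPM: tumour cells were at 12.03 and 11.7 CPM and neutrophils had no UMI. Ldhb thus made up 48.0 ± 1.20% of the pair in Cx3cr1-high cells, 28.1 ± 2.09% in Cx3cr1-low cells and 0.928 ± 0.0253% in tumour cells. Within the Cx3cr1-low class, Ldhb was at 451 and 525 CPM in barcodes without Malat1 and at 111 and 164 CPM in the 10 and 6 barcodes with it.

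The flux regulators were low in tumour cells apart from Pdk1. Pdk1, the kinase that shuts pyruvate dehydrogenase, was at 35.9 and 35.0 CPM in tumour cells, inside the immune range of 0 to 60.4 CPM. Pfkfb3 and Pfkfb4 make the activator of phosphofructokinase, fructose 2,6-bisphosphate. Pfkfb3 was at 2.85 and 2.50 CPM in tumour cells, below all 14 immune values, and reached 234 and 185 CPM in dendritic cells. Pfkfb4 was at 1.07 and 1.38 CPM in tumour cells and 122 and 159 in neutrophils.

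The other HIF targets had no common order over the classes. The mitophagy receptor gene Bnip3 was at 114 and 112 CPM in tumour cells and 167 and 217 in Cx3cr1-low cells, against 44.4 and 41.8 in Cx3cr1-high cells. Its relative Bnip3l was at 168 and 159.6 CPM in tumour cells and 334 and 372 in neutrophils. Ero1l, the oxidase that forms disulphides in the endoplasmic reticulum, was at 759 and 501 CPM in basophils and 178 and 184 in tumour cells, and Ndrg1, a stress-response gene, was at 212 and 192 CPM in dendritic cells against 43.2 and 37.5 in tumour cells. Ankrd37 was at 43.5 and 40.1 CPM in tumour cells, and Ddit4, an inhibitor of mTORC1, at 31.5 and 35.2. Ddit4 had 0 UMIs in Cx3cr1-low cells. The 2 remaining targets were rare. Car9, the surface carbonic anhydrase used as a hypoxia marker, gave 68 and 41 UMIs in 31 and 21 tumour cells, or 1.43 and 0.914 CPM, and Adm, encoding adrenomedullin, gave 56 UMIs in 7 tumour cells of library 1, of which 26 lay in a single cell, and 3 in library 2. Adm was at 157 and 20.1 CPM in Cx3cr1-low cells and at 6.55 and 8.56 in Cx3cr1-high cells, and the other 5 immune classes had 0 UMIs. Hif1a itself was at 106 and 111 CPM in tumour cells, below every immune value, which ran from 134 to 418 CPM. These are levels of its messenger RNA, whereas the factor is mainly controlled as a protein.

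Tumour cells were then tested against the mean of the 7 immune classes, the comparison that asks which arm of the pathway sets the tumour apart. Slc16a1, Ankrd37, Pgk1, Bnip3, Eno1, Ero1l and Pgam1 were higher in tumour cells, and Slc16a3, Pfkfb3 and Pfkfb4 were lower. A gene was called where edgeR's quasi-likelihood test gave a Benjamini-Hochberg adjusted p under 0.05 over all 6420 genes tested and the change was at least 2-fold (1 on the log2 scale). Of 29 members tested, 7 were called higher and 3 lower, against 43.8% of all genes called, 29.3% higher and 14.5% lower. The count of members is thus no greater than the background. The log2 change was -6.30 ± 0.48 for Slc16a3 (± SE; edgeR adjusted p = 3.93e-11), 4.47 ± 0.30 for Slc16a1 (edgeR adjusted p = 7.73e-12) and -4.12 ± 0.40 for Pfkfb3 (edgeR adjusted p = 3.31e-09). The Slc16a1 estimate depends on the 0 counts of neutrophils; pooled over all immune UMIs its ratio was 7.51 (95% counting interval 5.97 to 9.60). Pfkfb4 changed by -3.08 ± 0.70 (edgeR adjusted p = 4.27e-04) and Ankrd37 by 1.71 ± 0.24 (edgeR adjusted p = 9.90e-07). Estimates from single libraries differed from these: the log2 ratio for Pfkfb4 was -1.13 without replicate 1 and -2.33 without replicate 2, with a pooled ratio of 0.0472 (0.0369 to 0.0602), and that for Ankrd37 was 4.43 without replicate 2, which leaves only the library with no Ankrd37 UMI in neutrophils and dendritic cells.

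By role, 3 of 15 enzymes tested were called, all higher (Pgk1 1.30, Eno1 1.12 and Pgam1 1.04), with a median log2 change of 0.60 over the enzymes. Of 6 other HIF targets tested, 3 were called higher (Ankrd37, Bnip3 at 1.21 and Ero1l at 1.05), with a median of 1.13. The median over all 29 members was 0.57, or 0.41 with the 6 members that had 0 UMIs in some class set at their pooled ratio, and over all genes it was 0.35. The all-gene median was 0.60 with RLE size factors, which called 12 members higher and 3 lower. Ldha (0.87), Tpi1 (0.91), Slc2a1 (0.98) and Gapdh (0.74) stayed under the 2-fold limit, and so did Hif1a at -0.87 and Pfkp at -0.73. For Hk2 the fitted value was 1.18 ± 0.77 and not called, with T cells at 0 UMIs, while the pooled ratio of tumour to immune levels was 0.469 (0.439 to 0.501), in the opposite direction. Pfkm, Aldoc, Eno2, Adm and Car9 were too low to be tested. Without the immune barcodes that held tumour markers, 11 members were called higher and 3 lower. Ldha, Tpi1, Slc2a1, Gapdh and Ddit4 were then called higher, and Ankrd37 was no longer called. With barcodes of several classes counted in each, 2 were higher and 6 lower, and DESeq2 called 10 higher and 6 lower.

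**Figure D3:**
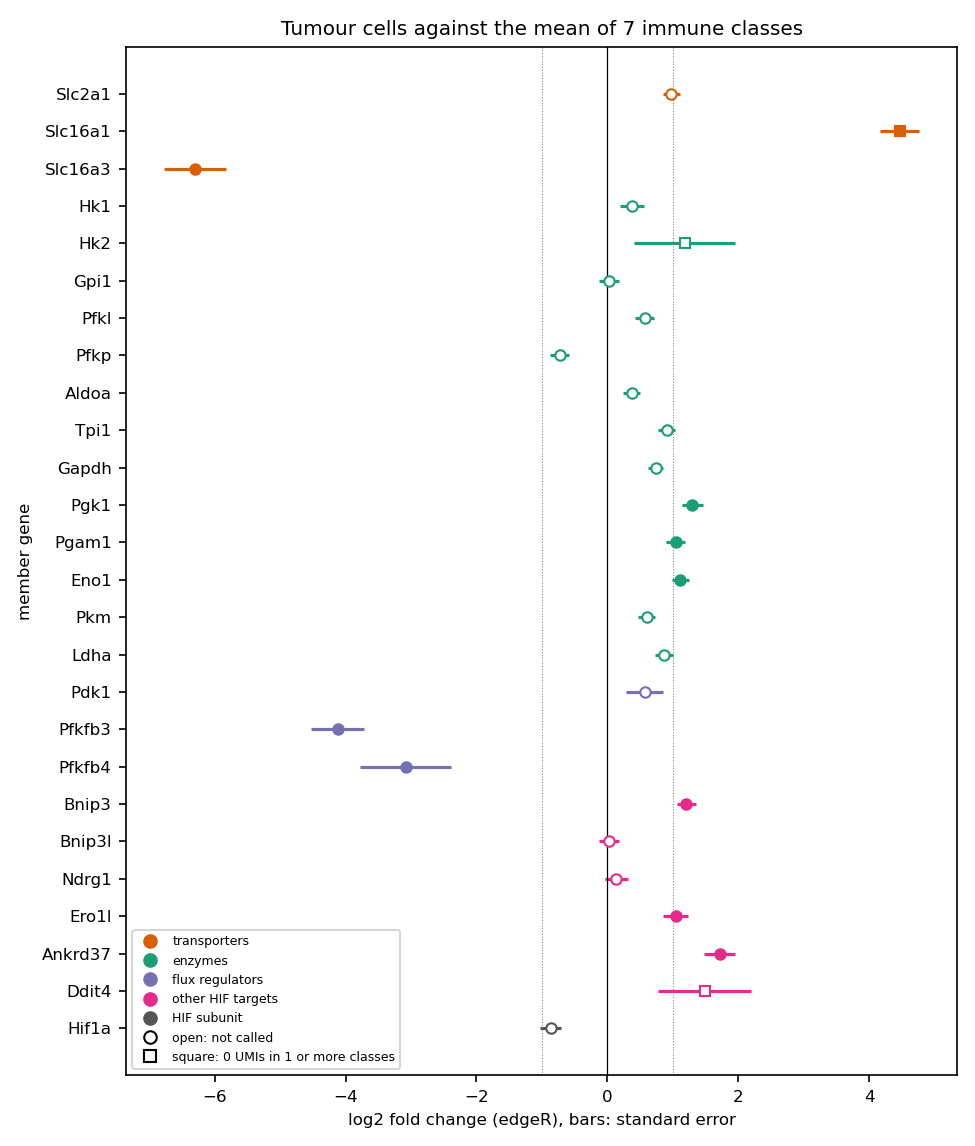
Log2 change of 26 members between tumour cells and the mean of 7 immune classes, with bars for the standard error; filled symbols passed the test, open symbols did not, and squares mark genes with 0 UMIs in at least 1 class (Slc2a3, Hk3 and Ldhb, whose errors could not be estimated, are left out). Slc16a1 lies at 4.47 and Slc16a3 at -6.30, on opposite sides, while most enzymes lie between 0 and 1.3.

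The 2 classes of C1qa-positive cells differed across glycolysis. They also differed in depth, with median UMIs of 2755 and 3685.5 in Cx3cr1-low and 10026.5 and 10301.5 in Cx3cr1-high barcodes. The gate counts raw UMIs of Cx3cr1, so shallow barcodes fall more readily into the Cx3cr1-low class. The part of depth in the differences was not tested. Cx3cr1-low cells had higher levels than Cx3cr1-high cells of Bnip3, Pfkp, Ankrd37, Ero1l, Pgk1, Tpi1, Pgam1, Aldoa and Eno1. Of 29 members tested, 9 were called higher and 0 lower, against 6.06% of all genes called, 2.1% higher and 3.96% lower. The median log2 change was 0.77 over the members and -0.13 over all genes. Among enzymes 6 of 15 were called higher (median 0.88), and among other HIF targets 3 of 6 (median 1.19). No transporter or flux regulator was called. Bnip3 changed by 2.15 ± 0.26 (edgeR adjusted p = 1.09e-05) and Pgk1 by 1.49 ± 0.24 (edgeR adjusted p = 2.46e-04). Pfkp changed by 1.94 ± 0.42, Ankrd37 by 1.91 ± 0.59 and Ero1l by 1.52 ± 0.39 (edgeR adjusted p = 0.00511, 0.0463 and 0.0152). Libraries differed for these 3: without replicate 1 the log2 ratio of Ero1l was 0.43, and without replicate 2 that of Pfkp was 1.14 and that of Ankrd37 1.25. With barcodes of several gates counted in each class, 4 members were called. Without immune barcodes that held tumour markers, Ankrd37 was no longer called and Ldha was.

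Most Cx3cr1-low barcodes lacked Malat1, and this moved with part of the difference. Without the barcodes that had no Malat1 UMI, which left 10 and 6 Cx3cr1-low barcodes, 6 members were called higher and 1 lower; Pgk1 (0.76), Pfkp (2.22) and Ankrd37 (2.66) no longer passed. Within the class, Bnip3 was at 150.2 and 173 CPM in barcodes without Malat1 and at 222 and 410 CPM in those with it, and Gapdh at 4411 and 3913 against 4126 and 3064 CPM. For both genes these values lay above Cx3cr1-high cells, which had 44.4 and 41.8 CPM of Bnip3 and 2273 and 2164 CPM of Gapdh. Hk2 was at 184 and 111 CPM without Malat1 and at 444 and 848 CPM with it. Ero1l was at 95.6 and 30.9 CPM without Malat1 and at 444 and 137 CPM with it. Of these only the 30.9 CPM lay below the Cx3cr1-high mean of 38.4 CPM (taken without tumour-marker barcodes). Pfkp and Ankrd37 rested on few UMIs. Pfkp gave 8 and 6 UMIs without Malat1 and 0 and 11 with it, and Ankrd37 5 and 0 without and 0 and 8 with it. A red cell marker sum of 12065 CPM was found in Cx3cr1-low cells of library 1 and of 35.3 CPM in library 2. The part of these barcodes' RNA content in the result was not tested beyond this.

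Each immune class was also compared with the mean of the other 6, in contrasts that share their samples and are therefore given side by side. Cx3cr1-high cells were called higher for Ldhb (6.09 ± 0.26; edgeR adjusted p = 5.88e-15), Hk3 (4.45 ± 0.49), Hk2 (3.11 ± 0.37), Pfkfb4 (2.22) and Pdk1 (1.12). They were called lower for Pfkp (-2.70 ± 0.26; edgeR adjusted p = 4.17e-09), Ndrg1, Hk1 and Ero1l. This made 9 of 29 members, a total near the 25.1% of all genes called. The members divided into 5 higher and 4 lower, whereas all genes divided into 21.6% higher and 3.46% lower. The Hk2, Hk3 and Ldhb estimates rest in part on classes with 0 UMIs; the ratio to the pooled UMIs of the other immune classes, with its 95% counting interval, was 1.59 (1.39 to 1.82) for Hk2, 1.63 (1.38 to 1.92) for Hk3 and 6.96 (6.0 to 8.11) for Ldhb. Such pooled levels weight classes by their UMIs, most of which came from Cx3cr1-high cells in the comparisons of the other classes. In the fit, the Pfkfb4 change was 4.08 without replicate 1 and 3.26 without replicate 2. Cx3cr1-low cells were called higher for 14 members and lower for 1, against 18.4% of all genes called, 14.4% higher and 3.96% lower. The former included 10 of 15 enzymes, with Ldhb (5.80 ± 0.35), Hk3 (5.26 ± 0.56), Hk2 (3.62 ± 0.43) and Bnip3 (2.48 ± 0.27) the farthest out (edgeR adjusted p = 5.15e-12, 1.64e-07, 6.88e-07 and 1.41e-07). Pooled, the ratios were 1.33 (1.13 to 1.56) for Ldhb, 2.05 (1.60 to 2.59) for Hk3 and 1.67 (1.34 to 2.06) for Hk2. The lower gene was Ddit4, with no UMI and so at least 3.47-fold below the pooled other classes. In the fit monocytes were called for 2 members, Hk2 (2.24 ± 0.62) and Hk3 (3.47 ± 0.90), both higher, a smaller share than the 15.4% of all genes, 13.8% higher and 1.57% lower (edgeR adjusted p = 0.0105 and 0.00665). Both estimates rest on T or dendritic cells at 0 UMIs: pooled, monocytes held 0.758 (0.588 to 0.964) times the Hk2 level and 0.703 (0.510 to 0.949) times the Hk3 level of the other immune classes, the opposite direction.

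Neutrophils, the class of fewest UMIs, were set apart by their transporters. In all, 6 of 29 members were called higher and 0 lower, a total near the 19.5% of all genes called. The called members were all higher, whereas all genes divided into 8.91% higher and 10.6% lower. Slc2a3 changed by 7.75 ± 0.92 (edgeR adjusted p = 9.13e-07), Slc2a1 by 2.24 ± 0.40 (edgeR adjusted p = 1.63e-04) and Slc16a3 by 1.91. With these, 3 of 4 transporters were higher, and so were Pfkfb4 (4.03 ± 0.80), Hk1 (2.33 ± 0.59) and Hk3 (3.77 ± 1.33). Slc2a3 was measured on 9 and 13 UMIs in neutrophils, and its pooled ratio was 44.1 (25.3 to 74.7), while that of Hk3 was 1.08 (0.465 to 2.14), an interval that includes 1. The Hk3 call was marginal: its edgeR adjusted p was 0.0487 and lay between 0.0575 and 0.265 under 7 of the alternatives. Pfkfb4 stood at 6.26 without replicate 1, and 5 members were also called lower under stricter limits on cells, 6 with a tumour gate of 2000 CPM. Ldhb, with 0 UMIs, was at least 7.57-fold below the pooled other immune classes but did not pass the test (edgeR adjusted p = 0.0657).

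Basophils were marked by Ero1l and Pfkp. Ero1l changed by 3.37 ± 0.20 (edgeR adjusted p = 2.66e-12), and Slc2a3 (4.55 ± 0.99), Slc16a1 (4.13 ± 0.63), Hk3 (3.87 ± 0.73), Ddit4 (3.69 ± 0.54), Hk2, Pfkp (1.94), Slc16a3 and Ldha were also called higher. Of these, 5 rest in part on classes at 0 UMIs: the pooled ratio was 5.51 (3.30 to 9.10) for Slc2a3, 6.24 (3.82 to 10.1) for Slc16a1 and 7.08 (5.17 to 9.68) for Ddit4, but 1.01 (0.830 to 1.21) for Hk2 and 0.889 (0.694 to 1.13) for Hk3, whose intervals include 1. Pfkfb4 (-3.55) and Pfkfb3 (-1.63) were called lower, so 11 of 29 members were called against 25.7% of all genes, 20.7% higher and 4.94% lower. Without the barcodes carrying tumour markers, Ero1l stood at 956 ± 216 CPM in place of 629.7 ± 182, Pfkp at 446 ± 59.9 in place of 280.4 ± 9.22, Slc2a3 at 60.1 ± 7.55 in place of 36.4 ± 10.2 and Gapdh at 1359 ± 212 in place of 2368 ± 54.6. In the remaining barcodes Ero1l and Pfkp thus lay above every other class mean, while Slc2a3 stayed below neutrophils. Without these barcodes Slc16a1 had a log2 change of 1.48 and was not called, and neither were Pfkfb3 and Pfkfb4, while 8 of the 11 called members kept their call and Hk1 was added, which made 9 higher and 0 lower. Slc2a3 and Hk3 reversed sign, to -1.34 and -2.91, when barcodes that also passed other gates were counted in, of which 75 and 59 passed both the tumour and the basophil gate. Pfkfb4 was at -8.42 without replicate 1 and -1.04 without replicate 2.

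Dendritic cells had lower levels of uptake, glycolytic and lactate genes than the other immune classes. Of 29 members, 11 were called lower and 2 higher, against 26.8% of all genes called, 6.81% lower and 20% higher. The lower genes were Slc16a3, Slc2a1, Pfkl, Tpi1, Pgam1, Eno1, Pkm, Ldha, Bnip3, Ero1l and Ankrd37, which include 6 of 15 enzymes; no enzyme was called higher. Slc16a3 changed by -3.97 ± 0.44 (edgeR adjusted p = 9.70e-08), Ankrd37 by -3.38 ± 1.07 (edgeR adjusted p = 0.0172) and Bnip3 by -2.17 ± 0.47 (edgeR adjusted p = 8.29e-04). The higher genes were Ndrg1 (2.73 ± 0.23; edgeR adjusted p = 1.20e-09) and Pfkfb3 (2.38 ± 0.24; edgeR adjusted p = 1.84e-08). The median over the members was -1.04, against 0.50 over all genes. Without the barcodes carrying tumour markers, Ldha was at 190.4 ± 23.8 CPM in place of 273 ± 17.96 and Pfkfb3 at 251 ± 35.9 in place of 209 ± 34.9, and 12 members were lower and 2 higher. Ankrd37 was then no longer called, while Aldoa and Pgk1 were. With a tumour gate of 2000 CPM, which passes barcodes of intermediate Nras on to this class, 3 members were lower and 4 higher. Ankrd37 and Bnip3 went to 0.030 and 0.0078 with barcodes of several classes counted in. Bnip3 was at -4.20 without replicate 1 and -1.18 without replicate 2, and Ankrd37 at -7.80 without replicate 2. T cells were called for 3 members, a smaller share than the 18% of all genes, 11.6% higher and 6.36% lower. Ddit4 was higher (3.49 ± 0.73, pooled ratio 4.71 (3.097 to 6.96); edgeR adjusted p = 9.76e-04), Pfkfb3 lower (-2.75 ± 0.62; edgeR adjusted p = 0.00185), and Hk2, with no UMI, at least 17.0-fold lower.

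The balance of enzymes against other HIF targets was compared by summing each group. The 18 enzymes summed to 10915 ± 263 CPM in tumour cells, 12687 ± 496 in Cx3cr1-low cells, 8875 ± 669 in basophils, 7497 ± 550.0 in neutrophils, 6954 ± 623 in monocytes, 6839 ± 106 in Cx3cr1-high cells, 5356 ± 859 in T cells and 4057 ± 47.6 in dendritic cells. The monocyte libraries overlapped with those of neutrophils and of Cx3cr1-high cells. The 8 other HIF targets summed to 965 ± 202 CPM in basophils, 793 ± 4.78 in neutrophils, 661 ± 173 in Cx3cr1-low cells and 575 ± 8.42 in tumour cells. They summed to 421 ± 109 CPM in dendritic cells, 355 ± 97.5 in T cells, 338 ± 24.8 in monocytes and 234 ± 10.6 in Cx3cr1-high cells. The ratio of enzymes to targets was 29.3 ± 0.871 in Cx3cr1-high cells, 20.5 ± 0.333 in monocytes and 19.97 ± 5.97 in Cx3cr1-low cells. Tumour cells stood at 19.0 ± 0.180 and T cells at 15.3 ± 1.79. The ratio was 9.45 ± 0.636 in neutrophils, 9.48 ± 2.68 in basophils and 9.99 ± 2.70 in dendritic cells. Without the barcodes carrying tumour markers the ratio was 5.46 ± 1.18 in basophils and 7.73 ± 1.10 in dendritic cells, and the basophil sums were 7096 ± 358 CPM of enzymes and 1324 ± 220.1 CPM of other HIF targets. In basophils Ero1l alone supplied most of the target sum, at 629.7 ± 182 CPM. The enzyme sum is carried by Gapdh, Pkm, Aldoa and Ldha, so these ratios say little of the rarer enzymes.

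**Figure D4:**
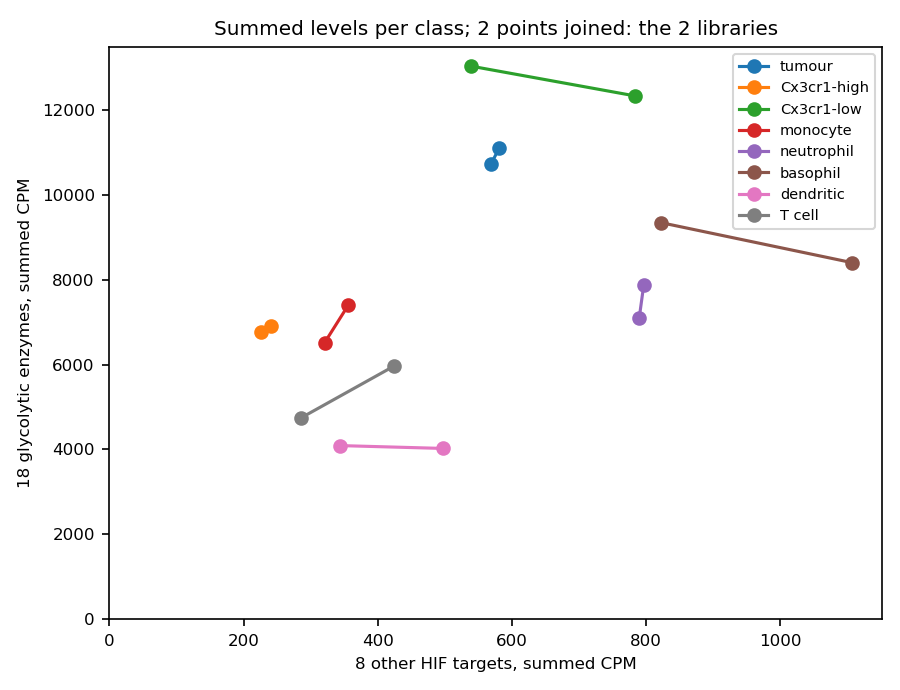
Summed level of the 18 enzymes (vertical axis, CPM) against that of the 8 other HIF targets (horizontal axis, CPM), with the 2 libraries of each class joined by a line. Cx3cr1-high cells lie farthest to the left and dendritic cells lowest, tumour and Cx3cr1-low cells at the top, and basophils and neutrophils to the right, so the sums do not fall on a single line.

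Within the tumour class, cells with many UMIs of the other HIF targets were compared with cells that had few. Each tumour cell was thinned to 10000 UMIs, its UMIs of Bnip3, Bnip3l, Ndrg1, Adm, Ero1l, Ankrd37, Ddit4 and Car9 were summed as a score, and the cells of each library were ranked and divided into 3 equal groups, called low, middle and high. The score covers a range and marks no cell type: the limits lay at 3 and 7 UMIs, and 569 of 954 and 468 of 798 scored cells lay within 1 UMI of a limit. The 8 score genes chose the groups and were not tested. Bnip3, for instance, was at 39.1 and 40.7 CPM in low-score cells and 214 and 209.9 CPM in high-score cells.

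Transcript levels of Slc2a1 and of most glycolytic enzymes rose with the score. Slc2a1 was at 91.9 and 83.2 CPM in low-score cells and 264 and 270.0 CPM in high-score cells, with the middle group between them in both libraries. Pgk1 was at 628 and 603 CPM in low-score cells and 1179 and 1151 CPM in high-score cells, Ldha at 1046 and 940.1 CPM in low-score cells and 1632 and 1541 CPM in high-score cells and Gapdh at 3144 and 2903 CPM in low-score cells and 4103 and 3929.9 CPM in high-score cells. For each of these, both high-score values lay above both low-score values. Slc16a3, barely present in tumour cells, was at 0.441 and 0.525 CPM in low-score cells and 2.03 and 2.16 CPM in high-score cells, on 32 and 31 UMIs in high-score cells, and Aldoc, the brain-type aldolase, at 2.71 and 3.02 CPM in low-score cells and 6.54 and 9.04 CPM in high-score cells. Of 24 members tested, 6 were called higher and 0 lower, against 2.42% of all 11972 genes tested, 1.39% higher and 1.04% lower. The log2 change was 2.17 ± 0.39 for Slc16a3, 1.67 ± 0.05 for Slc2a1, 1.5 ± 0.18 for Aldoc, 1.10 ± 0.05 for Pfkl and 1.04 ± 0.24 for Pfkfb3 (edgeR adjusted p = 9.56e-04, 2.49e-11, 4.25e-05, 4.29e-09 and 0.00535). Pdk1 was the sixth, at 1.01. These SEs rest on 2 libraries and 2 residual degrees of freedom, moderated over all genes.

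At an edgeR adjusted p under 0.05 with no limit on size, 19 of 24 members were higher and 1 was lower, against 15.4% and 15.8% of all genes. These included 14 of 17 enzymes, with a median log2 change of 0.68 over the enzymes and 0.002 over all genes. Pgk1 (0.99), Tpi1 (0.86), Ldha (0.74), Gpi1 (0.72), Hk2 (0.69), Aldoa (0.69) and Pfkp (0.68) rose by less than 2-fold, as did Gapdh (0.47) and Eno1 (0.34). The lower member was Ldhb, at 15.9 and 12.3 CPM in low-score cells and 8.0 and 9.18 CPM in high-score cells (-0.66 ± 0.14; edgeR adjusted p = 0.00313). Slc16a1, the main lactate transporter gene of the tumour cells, did not pass, at -0.06 ± 0.05 (edgeR adjusted p = 0.425), with 80.9 and 88.5 CPM in low-score cells and 77.1 and 78.2 CPM in high-score cells. Hif1a rose by 0.36 ± 0.04 (edgeR adjusted p = 4.14e-05). Pfkm, Eno2 and Pfkfb4 did not pass either. Levels rose in order from low through middle to high score in both libraries for 14 of 18 enzymes, 2 of 4 transporters and 2 of 3 flux regulators. The share of all genes that rose in this order was not counted, so these counts have no background beside them.

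**Figure D5:**
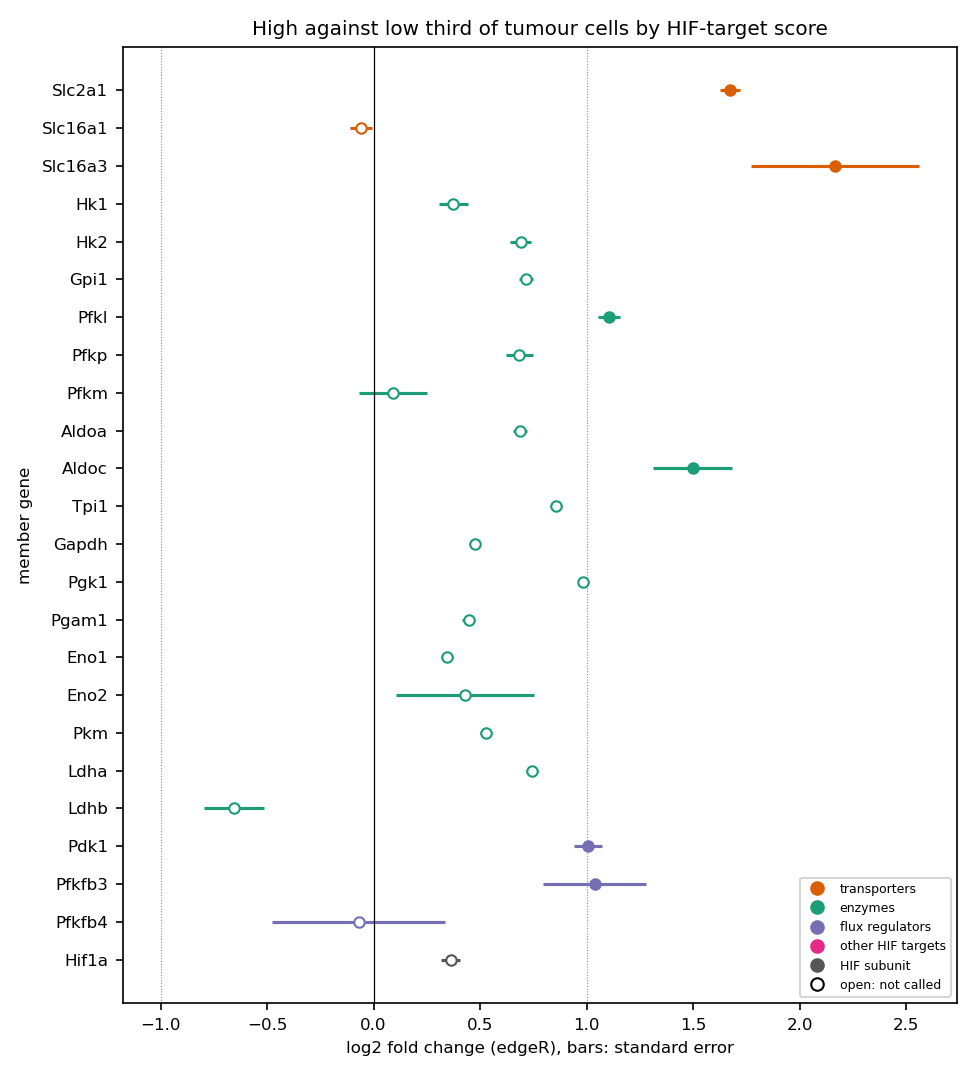
Log2 change of the 24 tested members between tumour cells of high and of low HIF-target score, with bars for the standard error and colours by role; filled points passed both limits, open points did not, and the 8 score genes are not drawn. Slc2a1 and Slc16a3 lie at 1.67 and 2.17, nearly all enzymes lie between 0.3 and 1.5, Slc16a1 lies at -0.06 and Ldhb at -0.66.

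Other properties of the cells moved with the score. The median share of mitochondrial UMIs was 3.81 and 3.98% in low-score cells and 2.86 and 3.14% in high-score cells. A sum of 4 cell cycle markers was 829 and 858 CPM in low-score cells and 540 and 624 CPM in high-score cells, that of 8 dissociation and heat shock markers 303 and 339 against 367 and 459 CPM, and Malat1 2944 and 3395 against 4588 and 5009.6 CPM. Their part in the differences between score groups was not tested. Across thinned tumour cells, the median Spearman correlation was 0.279 and 0.282 over 66 pairs of enzymes, 0.206 and 0.224 over 36 pairs of an enzyme and another HIF target, and 0.241 and 0.240 over 3 pairs of such targets (954 and 798 cells that share a library); these are weak and given as a description only.

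Pathway genes outside the 34 were read from lists of oxygen sensing, further HIF targets, further glycolysis and pyruvate entry. In tumour against immune cells, 10 of 21 tested were higher and 3 lower, against 29.3% and 14.5% of all genes; P4ha2 (a collagen prolyl hydroxylase, 4.03), Galk1 (galactokinase, 3.73), Vegfa (the angiogenic factor, 3.04) and Eno3 (the muscle-type enolase, 2.79) had the largest log2 changes. In Cx3cr1-low against Cx3cr1-high cells, 6 of 21 were higher and 0 lower, against 2.1% and 3.96% of all genes, led by Vegfa (2.38), the oxygen sensor Egln3 (2.03), Mif (1.45) and Fam162a (1.30). Between tumour cells of high and low score, 8 of 35 were higher and 0 lower, against 1.39% and 1.04% of all genes, with Egln3 (1.60), Bhlhe40 (1.52), Higd1a (1.39) and P4ha2 (1.36) in front, and none of 7 pyruvate entry genes was called. In dendritic cells the enolase UMIs lay elsewhere than in the other classes: Eno3 was at 418 ± 13.1 CPM and Eno1 at 199.6 ± 24.9 CPM.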

How the data were processed

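RNA was measured in 2 10x libraries. The deposited counts are UMIs per gene and barcode, made with Cell Ranger 3.1 on mm10 per the submitters' processing notes; the labels speak of runs brought to 1 depth, but totals differ. The 34 members, lists and tests were chosen with earlier results of these data known. Barcodes with at least 200 genes and at most 15% mitochondrial UMIs (1740 and 1446) were gated on raw UMIs; 1403 and 1215 passed exactly 1 class, 131 and 106 passed several classes, and 206 and 125 passed none. The libraries shared 10 barcodes, and the doublet caller scrublet (scanpy 1.11.5) marked 11 and 3, which were kept except in an alternative.

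UMIs were summed per library and class and fitted in edgeR 4.0.16 (R 4.3.3; quasi-likelihood, TMM, filterByExpr) with a term for the library; cells were never replicates. A class contrast averages classes on the log2 scale, so genes with 0 UMIs in a class depend on the prior count, and bounds (floor of 3 counts) or ratios of pooled UMIs are given for those called. The 95% intervals of pooled ratios come from exact binomial intervals of the UMIs on either side and cover counting error only. Every member was named, with full statistics for at most 5 called members per comparison. The procedure was tested on simulated data: of 169 tested genes changed 4-fold between tumour and immune sums (6420 genes), 98.8% were recovered, with 6 false calls. The simulation gave each gene the same share in all immune classes and all genes 1 dispersion (0.01435). It therefore does not cover genes that vary between immune classes, such as those at 0 UMIs in some of them. Alternatives were RLE scaling, DESeq2 1.42.0, no filter, stricter gates and cells, overlapping gates, Malat1, doublets, single libraries and, chosen after seeing the data, immune barcodes without tumour markers. Promoters come from RefSeq. Columns left unmapped numbered 0.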

Additional observations from a re-analysis of the deposited data

Results flagged for a closer look

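The barcodes that passed no gate, 206 and 125 in the 2 libraries, enter no comparison but held strong signal of these genes. Their 18 enzymes summed to 9732 ± 203 CPM (mean ± SD, n = 2; 9589 and 9875 CPM in libraries 1 and 2), and their 8 other HIF targets to 506 ± 41.3 CPM (535 and 477 CPM). Both sums lay below those of tumour cells and above those of Cx3cr1-high cells. None of the 34 members, that is 0 of 34, was higher there than in every class in both libraries. What cells these barcodes hold was not tested.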

How the results depend on the processing

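Of 107 counts of called members under alternatives, 97 stayed within 1.5 times the reported count, and of 565 recomputed log2 changes 4 reversed. The limit on counts compares totals only and takes no account of direction or of which members were called. In tumour against immune cells, overlapping gates turned mostly higher calls into mostly lower ones, and that total still stayed within the limit. DESeq2 called 16 members in tumour against immune cells and 4 in monocytes. A tumour gate of 2000 CPM gave 5 in monocytes, 11 in neutrophils, 7 in basophils, 7 in dendritic cells and 6 in T cells, and stricter limits on cells gave 10 in neutrophils. With barcodes of several gates counted in each class, 4 were called in Cx3cr1-low against Cx3cr1-high cells and 8 in Cx3cr1-low against other immune cells. The same setting reversed Slc2a3 (-1.34) and Hk3 (-2.91) in basophils and Ankrd37 (0.030) and Bnip3 (0.0078) in dendritic cells; the cause was not tested. Another 29 log2 changes kept their direction but no longer passed, and 7 isoform shares moved by more than 1 SD, all with overlapping gates or without tumour-marker barcodes. With n = 2, a share from a single library cannot lie more than 1 SD from the mean, so that limit could not flag single libraries. Between these, the share of Slc2a3 in neutrophils ran from 33.3 to 59.1%, and that of Hk1 in dendritic cells from 46.2 to 87.5%. Without the replicate block the fit called 10 members in tumour against immune cells, 6 between high-score and low-score tumour cells, 3 in monocytes and 5 in neutrophils. Single libraries gave log2 values with no test. Depth limits neutrophils most, where 1 UMI is worth 30.4 and 26.6 CPM.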
